A study of Mus musculus with 34 samples.

Results

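The genes described here drive the step from G1 into S phase and copy the genome. They are 40 genes of DNA replication, chosen by name, and all 40 were found by gene symbol among the 24223 rows of the deposited table of knockout libraries. RNA was sequenced from tracheal epithelium brushed from mice given a tobacco carcinogen, a sample that mixes the cell types of the airway surface. Of the 34 libraries, 28 came from Gprc5a-/- mice, which lack the epithelial receptor gene Gprc5a and are prone to lung adenocarcinoma, and 6 from unexposed wild-type mice. Every knockout group is labelled with that deletion, controls included, and 1 library has a Gprc5a count that goes against it, as described with the library totals.

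NNK, a tobacco-specific nitrosamine that alkylates DNA once airway enzymes activate it, was injected into the peritoneum over 8 weeks, with 3 injections a week of 50 mg/kg each. Knockout mice were brushed before NNK (baseline, n = 6), when the injections ended (t0, n = 6), and then 2 months (t2, n = 5), 4 months (t4, n = 6) and 6 months (t6, n = 5) afterwards. The last of these is the time at which lung adenocarcinomas develop in this model. The labels give an age of 6 to 8 weeks for every group. Age-matched unexposed mice for t0 and the later times were not analysed here. The effects of ageing therefore cannot be told apart from those of the 8 weeks of exposure or of time since it. Each library came from its own mouse and is named here by group and animal number.

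Total counts ran from 15.6 M to 37.6 M per knockout library, and estimated counts from 10.8 M to 24.0 M per wild-type library. Gprc5a had 4 to 49 counts in 27 knockout libraries, and the library labelled t2 339 had 238 (8.06 CPM by library totals), which goes against its label. That library also had the fewest genes above 0 (14283). In 3 libraries haemoglobin transcripts were abundant, with 22.8% of the total for t0 357, 25.5% for t4 371 and 15.3% for t6 349 against 3.06% or less elsewhere, while the ribosomal precursor Rn45s took 14.8% in t6 365. These 5 libraries stand apart from the rest, and results that rest on them are given with and without them where both were computed. Markers of the airway surface were present throughout: at baseline the summed level of club cell markers was 67100 to 98900 CPM and that of ciliated cell markers 3140 to 4190 CPM (CPM, counts per 1e6 counts, scaled between libraries by TMM). In brushed tissue, fewer cells of a type and less RNA per cell cannot be told apart, so a level below is a level per library and not per dividing cell.

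Before a cell enters S phase, the origin recognition complex, Cdc6 and Cdt1 load the ring-shaped Mcm2-7 helicase onto origins. Cyclin E kinase and E2F factors then switch the cell into S phase, Cdc45 and the GINS complex (Gins1 to Gins4) activate the helicase, and polymerases copy both strands behind it. Most genes of this machinery are classical E2F targets, kept low in resting airway epithelium and raised when basal cells divide to repair it.

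The promoters of some of these genes carry the E2F letters in plain view, and 1 example for each role that had one is printed to show them. Of the 40 genes, 34 had an entry in the RefSeq table (GRCm38.p6) of windows running from 250 bases before to 50 bases after the gene start. The forms TTTCCCGC and TTTGGCGC, each 8 bases long, were searched on both strands, and they do not overlap each other in the sequences shown. Each line below is 120 bases of a window, 5′ to 3′ on the gene's own strand, with the motif in capitals.
Cdt1 (chr8:122567945-122568064, plus strand): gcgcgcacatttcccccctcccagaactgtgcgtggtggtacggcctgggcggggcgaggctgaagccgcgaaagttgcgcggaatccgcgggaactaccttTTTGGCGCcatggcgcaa
Mcm3 (chr1:20820263-20820382, minus strand): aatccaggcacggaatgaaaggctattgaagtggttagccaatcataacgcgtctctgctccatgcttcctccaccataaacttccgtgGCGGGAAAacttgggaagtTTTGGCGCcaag
Gins3 (chr8:95633462-95633581, plus strand): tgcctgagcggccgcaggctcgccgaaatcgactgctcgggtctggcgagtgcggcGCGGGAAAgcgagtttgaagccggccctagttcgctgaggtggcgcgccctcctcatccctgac
Pold1 (chr7:44548766-44548885, minus strand): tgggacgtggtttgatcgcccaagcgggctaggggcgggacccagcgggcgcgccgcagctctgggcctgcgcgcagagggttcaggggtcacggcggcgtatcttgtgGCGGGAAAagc
Rfc3 (chr5:151651159-151651278, minus strand): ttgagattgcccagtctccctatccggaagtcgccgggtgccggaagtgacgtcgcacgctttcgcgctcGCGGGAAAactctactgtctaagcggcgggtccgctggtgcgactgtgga
E2f2 (chr4:136172204-136172323, plus strand): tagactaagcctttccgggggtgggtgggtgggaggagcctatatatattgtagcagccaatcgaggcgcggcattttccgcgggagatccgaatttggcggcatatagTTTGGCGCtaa

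At least 1 motif was present in 11 of the 34 genes (32.4%), with 13 occurrences in all, against 486 of the 27025 genes in the table (1.8%). Mcm3 held both forms, 20 and 39 bases past the gene start as RefSeq sets it. Gene coordinates given with the levels below come from the deposited table, whose gene starts can differ from those of RefSeq, as they do for Mcm3 and E2f2. The share was 27.8% (5 of 18) among the genes that rose at t0 and 37.5% (6 of 16) among those that did not pass the test there, so it was not higher among the genes that rose. Of a list of further replication genes, 5 of 26 held a motif (19.2%), and of a list of mitosis genes 0 of 24. A match describes letters and not binding.

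The replication genes as a whole were highest at the end of exposure. The summed level of the 40 genes was 360 ± 43.6 CPM (SD, n = 6) at baseline and 594 ± 135 at t0 (n = 6). It was 433 ± 82.9 at t2 (n = 5), 328 ± 33.9 at t4 (n = 6) and 341 ± 35.1 at t6 (n = 5). The lowest t0 library, t0 367, stood at 442 CPM, above the highest baseline library, baseline 343, at 420. The t0 libraries were also the most spread, up to 804 CPM in t0 375. Group means peaked at t0 for 32 of the 40 genes, at t2 for 4, at baseline for 3 and at t6 for 1. The 4 that peaked at t2 were Gins2, Gins4, Lig1 and Uhrf1, and their t2 means include the library labelled t2 339. It was the highest t2 library for Gins2 (25 CPM), Gins4 (54.6 CPM) and Lig1 (39.7 CPM), and means without it were not computed.

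**Figure D1:**
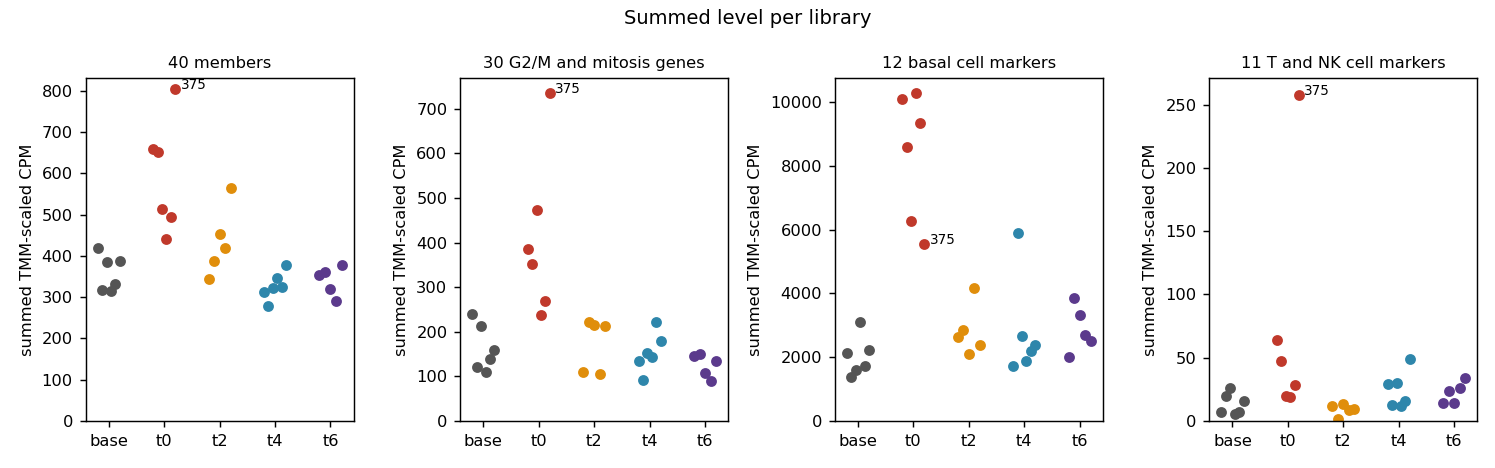
Summed level (CPM) in each knockout library, by group, of the 40 replication genes, 30 mitosis genes, 12 basal cell markers and 11 T and NK cell markers; each point is a library and t0 375 is labelled. All 6 t0 libraries lie above every baseline library for the replication genes, from 442 to 804 CPM against 315 to 420, and the t4 and t6 libraries lie between 279 and 379 CPM.

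A filter of at least 1 CPM in at least 5 libraries kept 39 of the 40 genes and 14847 genes in all, and edgeR's quasi-likelihood test was run over all of these, with Benjamini-Hochberg adjustment and a threshold of 0.05. Against baseline, 19 of the 39 rose at t0 (48.7%) and 0 fell, where 23.3% of all genes tested rose and 45.5% changed in either direction. Their median log2 fold change was 0.85, against 0.02 over all genes. Of the 20 that did not pass, 15 had a positive log2 fold change and 5 a negative one. The fit shares its estimate of the spread over all 28 libraries, so the library labelled t2 339 enters it. Cdc6, Gins1, Pola1, Pole, Rfc4 and Rrm2 had 0 counts in that library and were among those that did not pass. The effect of its removal alone was not tested for this comparison. Every t0 library lay above every baseline library for 14 genes, which is a separation seen for 13.1% of all genes tested, and 13 of those 14 passed the test. The other is Pold1. Orc1, the gene left out by the filter, had 0 to 39 counts per library, with 0.382 ± 0.244 CPM at baseline (SD, n = 6) and 0.847 ± 0.539 at t0 (n = 6).

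**Figure D2:**
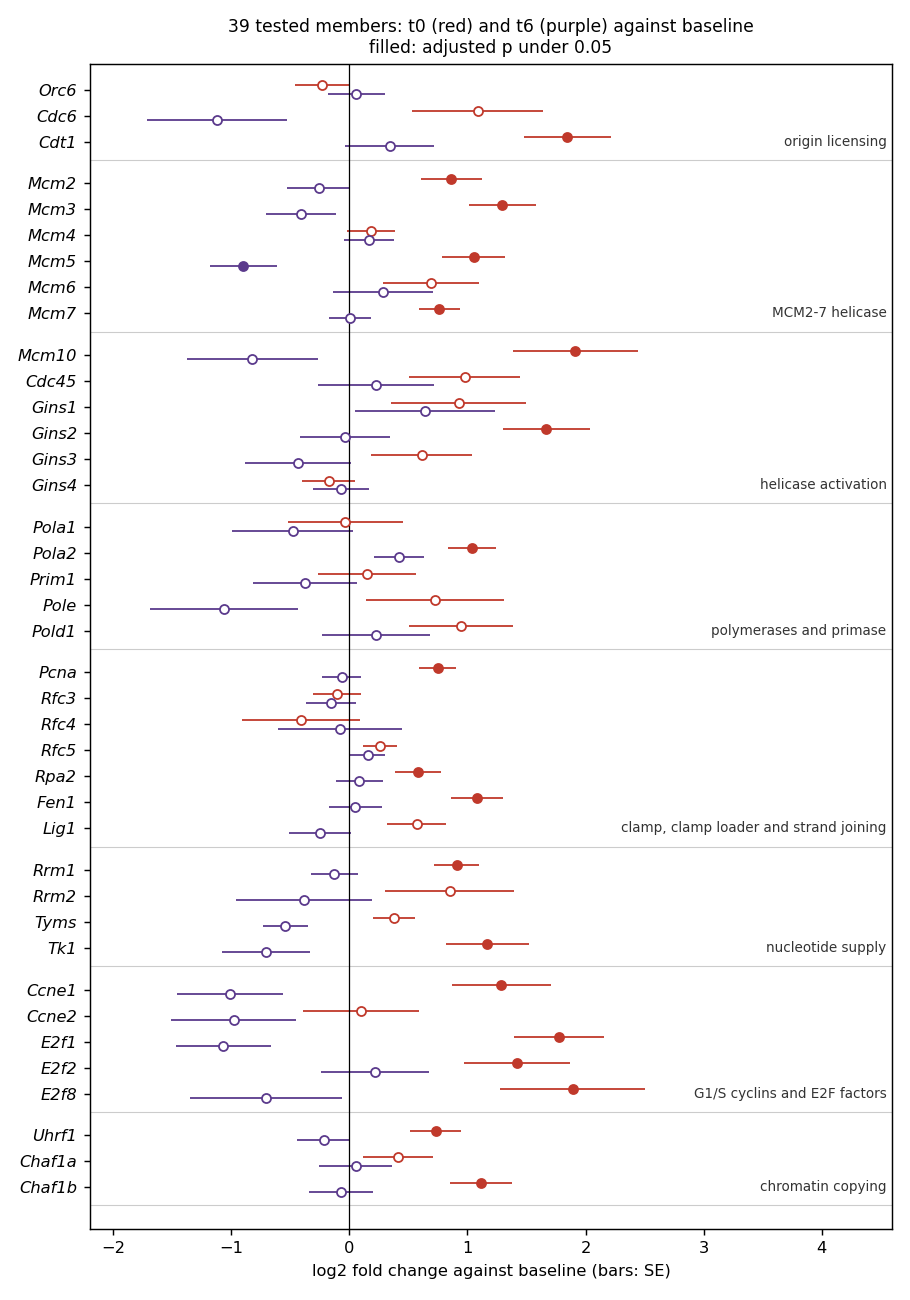
Log2 fold change against baseline (points, with standard error bars) of the 39 tested genes, ordered by role, at t0 (red) and t6 (purple); filled points passed the threshold. At t0 34 of the 39 values are above 0, and at t6 the values lie on both sides of 0, from 0.64 for Gins1 to -1.12 for Cdc6.

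Among the 3 licensing genes tested, Cdt1 rose, Orc6 did not pass, and Cdc6 passed under some settings alone. Cdt1 (chromosome 8, 122568015 to 122573131, mm10), the factor that brings the helicase to the origin, had a median of 2.44 CPM at baseline (lowest 0.548, highest 3.4). At t0 its median was 6.33 (lowest 4.26, highest 13), and the groups did not overlap. The log2 fold change was 1.85 ± 0.37 (SE, adjusted p = 0.000207). Cdc6, the ATPase that recruits the helicase with it, stood at 2.35 ± 0.798 CPM at baseline and 4.99 ± 1.93 at t0, a log2 fold change of 1.09 ± 0.55 (adjusted p = 0.11). It passed without the 5 libraries that stand apart (0.98, adjusted p = 0.0386), with only the groups compared (1.07, adjusted p = 0.0157) and by limma with a pseudocount of 1 (0.80, adjusted p = 0.0292). Orc6, the smallest subunit of the origin recognition complex, ran from 8.54 to 13.4 CPM at baseline (median 10.4) and from 6.66 to 11.6 at t0 (median 9.05). These ranges overlap, and the log2 fold change was -0.23 ± 0.23 (adjusted p = 0.429).

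Of the 6 helicase subunits, 4 rose at t0: Mcm3 by a log2 fold change of 1.29 ± 0.28 (SE, adjusted p = 0.000492), Mcm5 by 1.05 ± 0.27 (adjusted p = 0.00206), Mcm2 by 0.86 ± 0.26 (adjusted p = 0.00705) and Mcm7 by 0.76 ± 0.17 (adjusted p = 0.000709). Mcm3 (chromosome 1, 20803014 to 20820214) ran from 4.64 to 9.7 CPM at baseline (median 7.81) and from 12 to 29.4 at t0 (median 16.8). No t0 library came down to the baseline range. Mcm4, which sits in the same ring, ran from 12.2 to 22.5 CPM at baseline (median 20.3) and from 16.1 to 33.8 at t0 (median 19.5). In 2 of the 6 t0 libraries it lay above every baseline library and in the other 4 within the baseline range, with a log2 fold change of 0.19 ± 0.20 (adjusted p = 0.471). Mcm6 had 19.8 ± 4.32 CPM at baseline and 32 ± 9.91 at t0 and did not pass (log2 fold change 0.69 ± 0.41, adjusted p = 0.167), but did pass without the 5 libraries that stand apart (0.70, adjusted p = 0.0125). Whether the subunits differed from each other in their response was not tested.

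The genes that start the loaded helicase were split. Gins2 (chromosome 8, 120581266 to 120589076), a GINS subunit, ran from 2.04 to 4.65 CPM at baseline (median 2.58) and from 4.13 to 13.9 at t0 (median 9.95). The groups touched through t0 374, the lowest t0 library, and the log2 fold change was 1.67 ± 0.37 (SE, adjusted p = 0.000566). Mcm10, which joins the active helicase to polymerase alpha, rose from 1.41 ± 0.361 to 5.34 ± 3.16 CPM (log2 fold change 1.92 ± 0.53, adjusted p = 0.00416), the largest log2 fold change of the 39. Cdc45 (0.98 ± 0.47, adjusted p = 0.0907), Gins1 (0.93 ± 0.57, adjusted p = 0.191) and Gins3 (0.61 ± 0.43, adjusted p = 0.248) did not pass, and of these Cdc45 passed without the 5 libraries that stand apart (0.98, adjusted p = 0.0368). Gins4, the remaining GINS subunit, ran from 19 to 25.2 CPM at baseline (median 20.1) and from 16.2 to 20.3 at t0 (median 19.1), with a log2 fold change of -0.18 ± 0.23 (adjusted p = 0.545).

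Of the 5 polymerase and primase genes among the 40, Pola2 rose. It encodes the accessory subunit of polymerase alpha, the enzyme that with primase lays the first bases of each new strand. Pola2 (chromosome 19, 5940543 to 5964207) ran from 5.45 to 7.23 CPM at baseline (median 6.52) and from 10.2 to 17.6 at t0 (median 11.9), with no overlap and a log2 fold change of 1.04 ± 0.20 (SE, adjusted p = 0.000147). That was the smallest p of the 39 genes in this comparison. Pola1, the catalytic subunit of the same enzyme, ran from 4.35 to 8.82 CPM at baseline (median 6.72) and from 4.47 to 7.52 at t0 (median 6.65). Its log2 fold change was -0.03 ± 0.49 (adjusted p = 0.961), with a wider standard error than that of Pola2. In the library labelled t2 339, which the shared fit includes, Pola1 had 0 counts and Pola2 had 116. The difference between the fold changes of the pair was not tested. Prim1, the primase, had 0.15 ± 0.42 (adjusted p = 0.792), and Pole, the leading-strand polymerase, 0.72 ± 0.58 (adjusted p = 0.322). Pold1, the catalytic subunit of polymerase delta, had 9.83 ± 1.44 CPM at baseline and 18.9 ± 8.4 at t0 and missed the threshold (0.95 ± 0.44, adjusted p = 0.0818), but passed without the 5 libraries that stand apart (0.92, adjusted p = 0.00679).

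Behind the fork, Pcna, Fen1 and Rpa2 rose, and the clamp loader genes Rfc3, Rfc4 and Rfc5 did not pass. Fen1 (chromosome 19, 10199132 to 10203944), the nuclease that trims Okazaki fragments, ran from 7.76 to 11.6 CPM at baseline (median 9.27) and from 14.3 to 29.1 at t0 (median 19.5). The groups did not overlap, and the log2 fold change was 1.08 ± 0.22 (SE, adjusted p = 0.000207). Pcna, the sliding clamp, went from 51.3 ± 9.08 to 86.3 ± 19.9 (0.75 ± 0.16, adjusted p = 0.000322). Rpa2, which coats single strands, went from 8.85 ± 1.26 to 13.2 ± 1.73 CPM (0.58 ± 0.19, adjusted p = 0.0145). Rfc3, a clamp loader subunit, ran from 7.57 to 14.7 CPM at baseline (median 9.82) and from 5.49 to 11.6 at t0 (median 10.7), with a log2 fold change of -0.11 ± 0.20 (adjusted p = 0.694). Rfc4 (-0.41 ± 0.50, adjusted p = 0.525) and Rfc5 (0.26 ± 0.14, adjusted p = 0.134) load the same clamp. Lig1, the ligase that seals the fragments, had 0.57 ± 0.25 (adjusted p = 0.0626), and passed without the 5 libraries (0.50, adjusted p = 0.0392).

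Of the 4 genes that supply deoxynucleotides, Rrm1 and Tk1 rose. Rrm1 (chromosome 7, 102441695 to 102469772), the large subunit of ribonucleotide reductase, ran from 15.5 to 30 CPM at baseline (median 22.2) and from 34.9 to 51.7 at t0 (median 42.5). The lowest t0 library exceeded the highest baseline library, and the log2 fold change was 0.91 ± 0.19 (SE, adjusted p = 0.000338). Tk1, which salvages thymidine, rose from 4.83 ± 1.75 to 10.9 ± 4.63 CPM (1.17 ± 0.35, adjusted p = 0.00809). Rrm2, the small subunit of the reductase and the S-phase-limited one, ran from 3.59 to 7.93 CPM at baseline (median 4.68) and from 3.38 to 14.5 at t0 (median 10.3). The spread at t0 took in the whole baseline range, and Rrm2 did not pass (0.85 ± 0.55, adjusted p = 0.21). Rrm2 also had 0 counts in the library labelled t2 339, which is part of the shared fit. Tyms, which makes thymidylate, had 0.38 ± 0.18 (adjusted p = 0.0872).

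Of the 5 regulators of entry into S phase, 4 rose. E2f1 (chromosome 2, 154559400 to 154569427), an activating E2F, ran from 1.41 to 4.64 CPM at baseline (median 2.38) and from 4.82 to 15.3 at t0 (median 9.1), without overlap. Its log2 fold change was 1.77 ± 0.38 (SE, adjusted p = 0.000404). E2f8, a repressive E2F that is itself made in S phase, had 1.89 ± 0.61 (adjusted p = 0.0134), from 1.58 ± 1.13 to 5.89 ± 3.32 CPM. Ccne1, a cyclin E, had 1.29 ± 0.42 (adjusted p = 0.014), while the second cyclin E, Ccne2, ran from 0.696 to 2.27 CPM at baseline (median 1.61) and from 0.519 to 3.25 at t0 (median 1.52). Ccne2 thus lay low in both groups, with a log2 fold change of 0.10 ± 0.49 (adjusted p = 0.884). E2f2, the fourth that rose, is described with haemoglobin below.

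Chromatin is copied along with DNA, and 2 of the 3 genes listed for this rose. Chaf1b (chromosome 16, 93883901 to 93906107), a subunit of the CAF-1 complex that places histones on new DNA, ran from 3.74 to 5.22 CPM at baseline (median 4.04) and from 6.01 to 13 at t0 (median 8.83). There was no overlap, and the log2 fold change was 1.11 ± 0.26 (SE, adjusted p = 0.00107). Its partner Chaf1a ran from 10.9 to 14.3 CPM at baseline (median 13) and from 10.9 to 21.2 at t0 (median 18), with 0.41 ± 0.30 (adjusted p = 0.262). Uhrf1, which recruits the maintenance DNA methyltransferase to new strands, rose by 0.73 ± 0.22 (adjusted p = 0.00701).

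**Figure D3:**
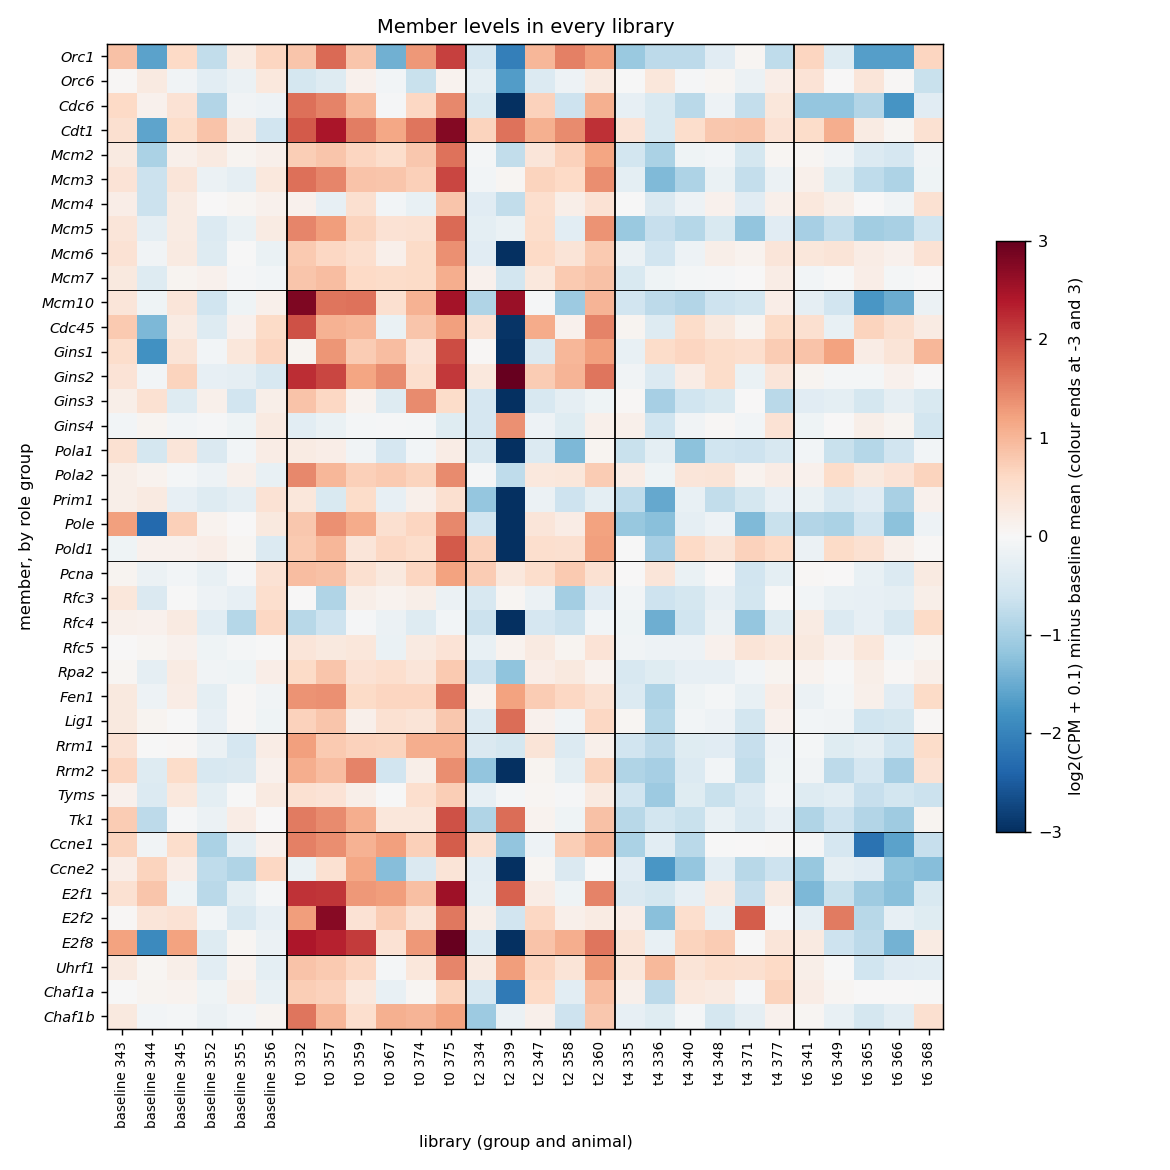
Level of each of the 40 genes in each of the 28 knockout libraries, as log2(CPM + 0.1) less the gene's baseline mean, with genes in rows by role and libraries in columns by group. The block of higher values is in the t0 columns, with Orc6, Gins4, Pola1, Rfc3 and Rfc4 as the genes below 0 in the t0 test, and the t2 339 column mixes high values with 7 genes at 0 counts.

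The t0 libraries were not alike. The library t0 375 was the highest of its group for 20 of the 40 genes and t0 367 the lowest for 22. The same library t0 375 had a summed level of T and NK cell markers of 258 CPM, against 19 to 63.9 in the other t0 libraries and 5.63 to 26.1 at baseline, and it was the lowest t0 library in basal cell markers at 5560 CPM. Leaving it out, 19 genes still passed, with a median log2 fold change of 0.67.

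Markers of several cell types also moved between baseline and t0, where 23.3% of all genes tested rose and 45.5% changed in either direction. Basal cell markers, the genes of the airway's main dividing cell, summed to 1370 to 3110 CPM at baseline and 5560 to 10300 at t0, and 9 of 12 rose. B cell markers summed to 2.81 to 9.29 CPM at baseline and 12.4 to 68.2 at t0 (3 of 6 tested rose), and 9 of 10 tested T and NK cell markers rose. Macrophage markers rose for 10 of 11, with Lyz2 lower. Their summed level was 3220 to 8080 CPM at baseline and 2070 to 6740 at t0. Most of that sum was Lyz2, with 83874 to 168210 counts at baseline and 30714 to 131126 at t0, so it does not follow the 10 that rose. Muscle markers rose for 9 of 10, and squamous markers for 6 of 10 tested, from a sum of 92 to 313 CPM to one of 1760 to 4760. Ciliated cell markers fell for 9 of 9 and club cell markers for 7 of 8, with 1 higher. At t2, t4 and t6 the basal markers summed to 2110 to 4160, 1710 to 5910 and 1990 to 3850 CPM. No basal, T and NK or B cell marker was at 0 in every library of a group. The part of these cells in the replication result was not tested.

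Other genes of the cell cycle were set beside these, from lists that hold none of the 40. Mitosis genes rose for 22 of 30 at t0 with 0 lower, at a median log2 fold change of 1.41, where 23.3% of all genes tested rose. Foxm1, the factor that drives the mitotic programme, had 1.41 ± 0.22 (SE, adjusted p = 7.4e-06), and Cdc20, the activator of the anaphase-promoting complex, had 1.76 ± 0.30 (adjusted p = 2.81e-05). Their summed level reached 736 CPM in t0 375, against 238 to 474 in the other t0 libraries and 109 to 239 at baseline. Further replication genes outside the 40 did not move as one: 7 of 31 rose and 6 fell, with a median of 0.14. The 7 that rose and the 13 called in all are near the shares of all genes tested, 23.3% and 45.5%. Pold4, the small subunit of polymerase delta, rose by 1.22 ± 0.20 (adjusted p = 2.26e-05), and Dut, which keeps uracil out of DNA, by 0.76 ± 0.15 (adjusted p = 0.000189). Orc3, a core origin recognition subunit, fell (-0.83 ± 0.14, adjusted p = 1.8e-05), as did Pole4, a small subunit of polymerase epsilon (-0.78 ± 0.16, adjusted p = 0.00032), and the clamp loader gene Rfc2 (-0.73 ± 0.16, adjusted p = 0.000426).

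A list of G1 control genes, which holds drivers of G1 as well as inhibitors, was set beside these too. Of its 27 genes, 13 rose at t0 and 3 fell, with a median of 0.42, where 23.3% of all genes tested rose and 45.5% changed. Cdkn1a, the p21 inhibitor induced by p53, had a log2 fold change of 2.88 ± 0.24 (SE, adjusted p = 6.6e-10), and Cdkn2b, the p15 inhibitor of the cyclin D kinases, 2.1 ± 0.24 (adjusted p = 1.19e-07). E2f5, an E2F of resting cells, fell (-1.37 ± 0.19, adjusted p = 1.53e-06), together with the inhibitor Cdkn1c (-1.53 ± 0.24, adjusted p = 8.01e-06) and the pocket protein gene Rbl2 (-0.49 ± 0.15, adjusted p = 0.00817). These lists were chosen by name and are described by their counts alone.

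At 2 months after NNK, 5 of the 39 genes were higher than at baseline and 0 lower (11.2% of all genes tested were higher and 19.9% changed in either direction), with a median log2 fold change of 0.15. The share is near the background. The 5 were Cdt1 (1.33, adjusted p = 0.0147), Gins2 (1.68, adjusted p = 0.00302), Pcna (0.57, adjusted p = 0.0149), Fen1 (0.66, adjusted p = 0.037) and Uhrf1 (0.81, adjusted p = 0.0121), and all 5 had also risen at t0. No gene had its t2 and baseline libraries fully apart, as 5.59% of all genes tested did upward and 6.36% downward. Cdt1 had 3, 5.92, 3.99, 5.13 and 8.72 CPM in t2 334, 339, 347, 358 and 360. The highest of these, t2 360, was the highest of its group for 24 of the 40 genes, and without it Cdt1 lost its call (1.08, adjusted p = 0.0534).

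The library labelled t2 339, with its Gprc5a count, stood at both ends of the t2 group. It was the lowest of the 5 for 25 genes, with 7 at 0 counts, and the highest for 8. The 7 were Orc1, Cdc6, Gins1, Pola1, Pole, Rfc4 and Rrm2. Gins2 had 3.65, 25, 4.96, 6.02 and 8.99 CPM in t2 334, 339, 347, 358 and 360, so a single library lay far above the rest. Without t2 339, the Gins2 log2 fold change was 0.96 and still passed, Fen1 was lost (0.49, adjusted p = 0.11) and Mcm7 (0.54, adjusted p = 0.0129) and Pold1 (0.76, adjusted p = 0.045) passed, for 6 genes in all. The Fen1 call at t2 was also lost without any 1 of 6 other libraries (baseline 344, 352, 355 or 356, or t2 347 or 358), at adjusted p of 0.0518 to 0.0708. Gins4 reached 54.6 CPM in t2 339 against 14.7 to 23.3 in the other t2 libraries.

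Against t0, 6 of the 39 were already lower at t2 and 0 higher (14.2% of all genes tested were lower and 29.9% changed), again a share near the background. They were Rrm1 (-1.06, adjusted p = 0.000204), Chaf1b (-1.16, adjusted p = 0.00211), Pola2 (-0.84, adjusted p = 0.0034), Rpa2 (-0.74, adjusted p = 0.00652), Gins3 (-1.33, adjusted p = 0.03) and E2f2 (-1.28, adjusted p = 0.0412). Rrm1 had 16.2, 15.2, 28.7, 16.6 and 24.7 CPM in t2 334, 339, 347, 358 and 360. All 5 lay below the lowest t0 library at 34.9 CPM, and Rrm1 and Rpa2 were the genes whose t2 libraries all lay below every t0 library (6.9% of all genes tested did so). The count was 12 without t2 360 and 8 without the library labelled t2 339. Each comparison with t0 shares its libraries with the comparison of t0 with baseline, so a fall against t0 is not separate evidence of the rise.

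By 4 and 6 months the t0 rise was no longer seen. Against baseline, 0 of the 39 were higher at t4 and 2 were lower, Mcm5 (-0.78, adjusted p = 0.0402) and Tyms (-0.53, adjusted p = 0.0394), where 9.56% of all genes tested were lower and 19.6% changed. At t6, 0 were higher and Mcm5 was the single gene lower (-0.90, adjusted p = 0.0452), where 4.29% were lower and 8.83% changed. Median log2 fold changes were -0.22 at t4 and -0.13 at t6. These shares are below the background, and without the 5 libraries that stand apart both counts of lower genes were 0. Both were also 0 with scaling by library totals. Of the 19 genes higher at t0, 0 were higher at t4 or at t6.

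Mcm5 was the gene with the lowest late levels relative to its own baseline among those called. Mcm5 (chromosome 8, 75109509 to 75128440) ran from 7.62 to 13 CPM at baseline (median 10.5) and from 13.7 to 33 at t0 (median 20.2). At t2 it had 8.29, 8.87, 14.6, 8.17 and 26.1 CPM in t2 334, 339, 347, 358 and 360, and at t4 it ran from 4.41 to 7.96 (median 5.91). At t6 it had 5.03, 6.15, 4.87, 5.09 and 6.69 CPM in t6 341, 349, 365, 366 and 368. Every t6 library lay below every baseline library, a separation seen for 4.73% of all genes tested, while the t4 range touched the lowest baseline library. The call at t6 was lost when any of 8 single libraries was left out, at log2 fold changes of -0.94 to -0.82.

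Against t0, 22 of the 39 were lower at t4 (17.5% of all genes tested were lower and 33.4% changed) and 23 at t6 (20.5% and 38.7%), with 0 higher at either time. Median log2 fold changes were -0.91 and -0.95. Of the 19 genes higher at t0 against baseline, 17 were lower at t4 and 19 at t6 against t0. Every t4 library lay below every t0 library for 17 of the 40 genes (8.86% of all genes tested), and every t6 library for 20 (12.1%). E2f1 had 0.941, 1.56, 1.17, 1.01 and 1.84 CPM in t6 341, 349, 365, 366 and 368, all below the lowest t0 library at 4.82, with a log2 fold change against t0 of -2.84 (adjusted p = 7.49e-06). Mcm10 (-2.74, adjusted p = 0.000527), E2f8 (-2.60, adjusted p = 0.00326) and Mcm5 (-1.95, adjusted p = 7.75e-06) were also far lower at t6 than at t0.

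**Figure D4:**
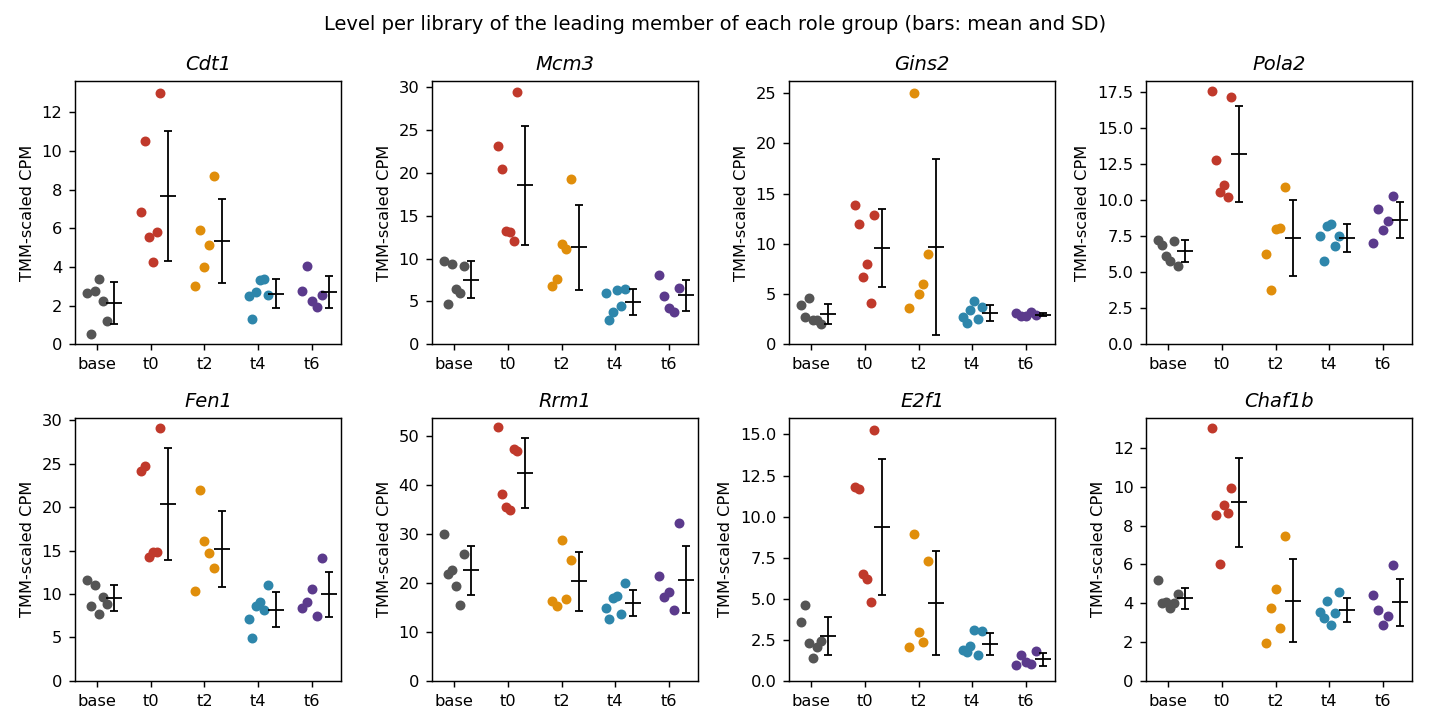
CPM in each library (points) with group mean and SD (bars) for the gene of smallest p at t0 in each role, at baseline, t0, t2, t4 and t6. Cdt1, Mcm3, Pola2, Fen1, Rrm1, E2f1 and Chaf1b have every t0 library above every baseline library, and the t2 339 point of Gins2 stands at 25 CPM above the other 4 t2 libraries.

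From t2 to t6, 5 of the 39 were lower at t6 and 0 higher (3.86% of all genes tested were lower and 5.64% changed), with a median of -0.35. They were E2f1 (-1.86, adjusted p = 0.0112), Gins2 (-1.72, adjusted p = 0.0132), Mcm5 (-1.25, adjusted p = 0.0137), Uhrf1 (-1.03, adjusted p = 0.0122) and Pcna (-0.64, adjusted p = 0.0282). These 5 and Tyms had every t6 library below every t2 library (3.7% of all genes tested did). Without the 5 libraries that stand apart 1 of them passed, and without the library labelled t2 339 alone 8 genes passed. Over any of the 5 groups, 23 of the 39 genes changed by edgeR's joint test, where 56.8% of all genes did, a share near the background. With any 1 of the 28 libraries left out, the joint test called 20 to 31 of the 39, and 7854 to 9655 genes in all.

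Uhrf1 had its highest group mean at t2, where the library labelled t2 339 had 778 counts against 332 to 573 in the others. The t2 mean without that library was not computed. Uhrf1 had 10.6 ± 1.83 CPM at baseline (SD, n = 6), 17.6 ± 6.5 at t0 (n = 6), 18.6 ± 6.22 at t2 (n = 5), 15.5 ± 2.68 at t4 (n = 6) and 9.11 ± 1.94 at t6 (n = 5). It was the gene with every t4 library above every baseline library (13.3 to 20.6 against 8.3 to 12.7 CPM; 5.75% of all genes tested), yet the test at t4 did not pass (0.54, adjusted p = 0.0754). It did by DESeq2 (0.57, adjusted p = 0.0489) and by edgeR with only the groups compared (0.54, adjusted p = 0.0168). Against t0 its log2 fold change was -0.19 at t4 (adjusted p = 0.546) and -0.95 at t6 (adjusted p = 0.00175).

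At the later times some genes of the neighbouring lists still differed from baseline. Of the 27 G1 control genes, 8 were higher and 1 lower at t4, and 2 were higher and 1 lower at t6, against 19.6% and 8.83% of all genes tested that changed at these times. At t6 the inhibitor genes Cdkn2a (3.00 ± 0.59, SE, adjusted p = 0.00154) and Cdkn2c (1.26 ± 0.33, adjusted p = 0.0134) were higher and the cyclin gene Ccnd1 was lower (-0.56 ± 0.18, adjusted p = 0.0446). Of the 31 further replication genes, 4 were lower and 0 higher at t4. They were Orc3 (-0.66, adjusted p = 0.00138), Rfc1 (-0.47, adjusted p = 0.0116), Gmnn (-0.80, adjusted p = 0.0198) and Dut (-0.49, adjusted p = 0.0246). At t6 Pold4 alone of that list was called, and was higher (0.70 ± 0.21, adjusted p = 0.0364). Of the 30 mitosis genes, Ube2c (1.97, adjusted p = 0.0187) and Mybl2 (1.34, adjusted p = 0.0105) were higher and Plk1 lower (-0.71, adjusted p = 0.0157) at t4, and Plk1 was the one called at t6 (-0.77 ± 0.21, adjusted p = 0.0227). Ube2c had 570 counts in the haemoglobin-rich library t4 371, against 60 to 201 in the other t4 libraries. Its rise at t4 without that library was not tested. The genes named here were chosen after their values were seen.

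E2f2, an activating E2F that red cell precursors also use, was high in the 3 libraries rich in haemoglobin. E2f2 (chromosome 4, 136172394 to 136196057) ran from 6.88 to 13.1 CPM at baseline (median 9.54) and from 12.8 to 64.5 at t0 (median 19.9). Its highest level in each of the t0, t4 and t6 groups was in the haemoglobin-rich library, at 64.5 CPM in t0 357, 34.2 in t4 371 and 28.6 in t6 349. Among libraries with under 10% haemoglobin it had 9.94 ± 2.41 CPM at baseline (SD, n = 6), 19.0 ± 7.05 at t0 (n = 5), 10.9 ± 3.04 at t2 (n = 5), 9.36 ± 3.67 at t4 (n = 5) and 7.29 ± 1.31 at t6 (n = 4). The t0 rise of 1.42 ± 0.45 (SE, adjusted p = 0.0114) was lost without t0 357 (0.93, adjusted p = 0.0749), and was kept at a like size without all 5 libraries that stand apart (0.92, adjusted p = 0.0056). Alas2, the first haem enzyme of red cells, stood at 1910 CPM in t0 357 against no more than 41 in the rest of that group. It stood at 2810 CPM in t4 371 and at 1330 in t6 349. The part of red cell precursors in the E2f2 level was not tested beyond these values.

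**Figure D5:**
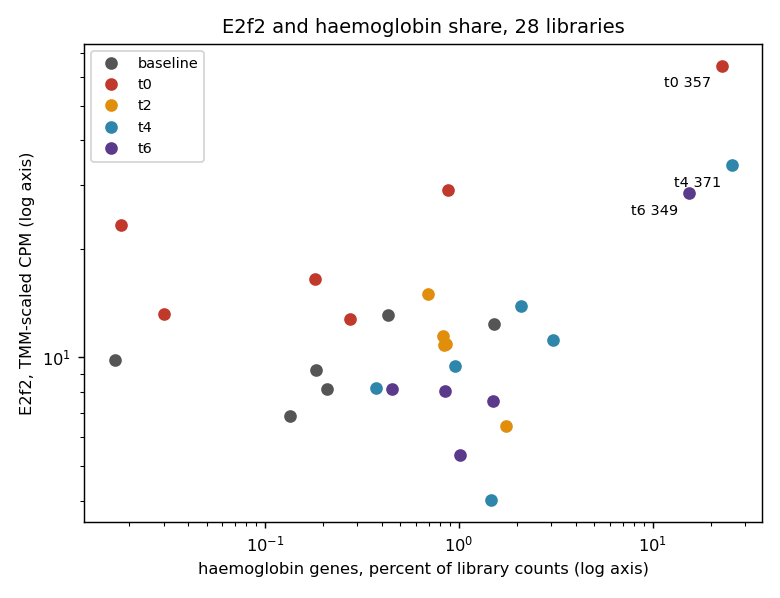
E2f2 level (CPM) against the share of counts taken by haemoglobin transcripts (percent), both on log axes, with 1 point per knockout library coloured by group. The 3 libraries above 10% haemoglobin have 28.6 to 64.5 CPM, and the other 25 have 4.01 to 29.1.

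In the unexposed wild-type airway the order of levels per transcript length could be read, in TPM (transcripts per 1e6 transcripts, which allows for length). Pcna was first at 38.4 ± 11.3 TPM (SD, n = 6), followed by Mcm7 at 13.3 ± 4.38, Rrm1 at 12.2 ± 4.71, Gins4 at 10.7 ± 3.54 and Rfc3 at 9.87 ± 4.47. Mcm7 to Rfc3 do not differ beyond their spread, and Pcna stood above them, though its lowest library (17.1 TPM) was within the range of Mcm7, Rrm1 and Rfc3. At the other end lay E2f1 at 0.49 ± 0.374, E2f8 at 0.458 ± 0.733, Mcm10 at 0.34 ± 0.281 and Orc1 at 0.267 ± 0.424 TPM, which likewise do not differ beyond their spread. Gins4 and Rfc3, high in the unexposed airway, were among the genes that did not pass at t0, while Pcna, Mcm7 and Rrm1, above them in this order, rose. E2f2 had 12.5 TPM in a wild-type library with 5.3% haemoglobin, 3.07 in one with 21.2% and 1.6 to 1.87 in the other 4, which had at most 0.436%. No genotypes were tested against each other, because the authors processed the wild-type libraries on their own.

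Some of these genes share bases with a neighbour, and whether the authors' counting used strand is not given in the sources used here. In the GENCODE M21 annotation 14 of the 40 share exon bases with another gene, 11 of them with a protein-coding one. Among the 19 that rose at t0 these were Fen1, Gins2, Mcm7, Tk1 and E2f8, so 14 of the 19 did not share exon bases. Pcna and Tyms have named pseudogenes, so reads of these genes are uncertain.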

How the data were processed

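Libraries of poly-A RNA were read on an Ion Proton after an RNA integrity check, per the labels' protocols. The deposited knockout table carries RPKM in its name, yet it holds estimated counts, since library totals differed and 76.3% of non-zero values fell within 0.01 of a whole number. It was made with STAR 2.4.1d, Bowtie2 2.1.0, Partek and mm10, per the submitters' processing notes. The role of each is not given in the sources used here. The deposited wild-type TPM values came from RSEM 1.3.1 with STAR 2.7.0f and GRCm38, per the submitters' processing notes and the file headers.

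Estimated counts were rounded to whole numbers, scaled by TMM and tested with edgeR 4.0.16 in R 4.3.3: a robust quasi-likelihood fit of all 28 knockout libraries with 1 mean per group, two-sided, over the 14847 genes that reached 1 CPM in 5 or more libraries, Benjamini-Hochberg threshold 0.05. Standard errors of log2 fold changes were derived from this test, as the absolute log2 fold change divided by the square root of its F statistic. DESeq2 1.42.0 and limma 3.58.1 (log2 of CPM plus 1 or 0.1) were alternatives, with other scalings and filters, libraries left out, and only the groups compared. Python 3.11.15, numpy 2.4.6, pandas 2.3.3, scipy 1.17.1 and matplotlib 3.10.9 made the tables and plots. The test was tried on simulated data for t0 against baseline with 14847 genes. It recovered 8.96% of 67 genes given a 1.5-fold change, 62.7% of 67 given a 2-fold change and 87.9% of 66 given a 4-fold change, and made 1 false call. The simulation held the t0 and baseline libraries alone and changed only these genes. The reported test fitted all 28 libraries and called 45.5% of genes at t0, so these rates are not those of the reported test.

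The 40 genes and the other lists were chosen with earlier results of these data known. All 40 are accounted for. Levels by library are given for the smallest and largest p of each role at t0 and for genes called at t6, other lists by their smallest p and their called genes that moved against the list, and promoters for the smallest p of each role that held a motif. Other genes named by library or sequence were chosen after their values were seen.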

Additional observations from a re-analysis of the deposited data

Results flagged for a closer look

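A group was looked at again where 1 library lay far from the others of its group by Dixon's test, which chance alone gives in about 1 in 20 groups. E2f2 was flagged 3 times, at 64.5 CPM in t0 357 (12.8 to 29.1 in the other t0 libraries), 34.2 in t4 371 (4.01 to 13.9 in the others) and 28.6 in t6 349 (5.36 to 8.16). These are the 3 libraries rich in haemoglobin. In the library labelled t2 339, whose Gprc5a count goes against its label, Gins2 stood at 25 CPM against 3.65 to 8.99 and Gins4 at 54.6 against 14.7 to 23.3. Mcm4 was low in baseline 344, at 12.2 CPM against 19 to 22.5 in the other baseline libraries. Chaf1a was high in t6 341, at 14.9 CPM against 12.6 to 13.1.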

How the results depend on the processing

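No result reversed. At t0, 19 to 24 of the 39 genes rose under every alternative other than leaving out a single library. The 19 of the reported test were always among them, except E2f2 without t0 357. Leaving out 1 of the 12 t0 and baseline libraries gave 18 to 20. Here and below, a single library was left out only for comparisons that include its group. The library labelled t2 339 is part of the shared fit, and its removal alone was not tested for t0 against baseline. Scaling by library totals gave 23, moved the median of all genes to 0.19 and that of the replication genes to 1.04, and 69.4% of the genes called were then higher, against 51.1%. Counts at later times moved more. At t2 against baseline, 3 genes passed with only the groups compared. At t2 against t0, 10 were lower by DESeq2, 16 and 14 by limma with pseudocounts 1 and 0.1, 3 with only the groups compared, and 4 to 12 leaving out 1 library. At t4 against baseline, 1 passed with DESeq2 size factors or without haemoglobin genes, 0 with library totals, with no filter or without the 5 libraries, 5 with only the groups compared (1 of them higher, Uhrf1), 3 by DESeq2 (1 higher, Uhrf1), and 0 to 3 leaving out 1 library; genes called were 4371 with only the groups compared. At t6 against baseline, 2 passed by DESeq2, 0 with its size factors, without haemoglobin genes, with library totals, with no filter or without the 5 libraries, and 0 to 2 leaving out 1 library; genes called were 833 with library totals. At t6 against t2, 8 passed by DESeq2, 0 with only the groups compared, 1 without the 5 libraries and 4 to 8 leaving out 1 library; genes called were 1338, 43 and, leaving out 1 library, 351 to 1056. The E2F motif was in 5 windows with only the 150 bases upstream and 6 with TTTCCCGC alone. The cause of these shifts was not tested. No paired analysis was possible because animal numbers are not shared between groups. At this depth Orc1 had 0 to 39 counts per library and was not tested.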
